A study of Mus musculus with 15 samples.

Results

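Histone genes were described across 15 RNA-seq libraries of sorted mouse spleen T cells. The members were chosen by symbol alone, as every gene of the 4 deposited gene tables whose symbol is that of a histone H1, H2A, H2B, H3 or H4 gene or of an H1 or H2A variant. This gave 33 of the 4567 genes that the tables list. They were 3 linker H1 genes (H1f1, H1f2, H1f5), 6 H2A genes, 13 H2B genes, 3 H3 genes (H3c3, H3c7, H3c8) and 4 H4 genes (H4c9, H4c17, H4c18, H4f16), called cluster histone genes here, and 4 replacement variants (H2az1, H2ax, H1f0, H1f10). RefSeq names 110 mouse symbols of the same form, so most histone genes have no values here.

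The cells came from 5 sorted populations with 3 libraries each. Control CD4+ and CD8+ T cells were taken on day 0 from untreated wild-type C57Bl6 mice that had received no transplant. The aGvHD populations were taken on day 7 from lethally irradiated BALB/c recipients of C57Bl6 T cells and bone marrow, and were sorted on Flica, a fluorescent probe of active caspase-1, into CD4 Flica-negative, CD8 Flica-negative and CD8 Flica-positive cells. The paper describes its control T cells as sorted Flica-negative cells too. Spleens of several mice with aGvHD were sorted together, and of fewer control mice, so a library may stand for a pool of animals. Control cells differed from aGvHD cells also in never having been in an irradiated host. In such bulk samples, fewer cells of a type and less RNA per cell cannot be told apart.

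A nucleosome wraps DNA around a core of H2A, H2B, H3 and H4, and linker H1 binds where the DNA enters and leaves. The cluster histone genes are copied mainly in S phase, when new DNA needs new nucleosomes, and their mRNAs end in a conserved stem-loop in place of a poly(A) tail. The replacement variants are mostly made throughout the cell cycle and not only in S phase, and mostly from ordinary polyadenylated mRNAs. Libraries were made by oligo-dT capture, which takes up RNA through its poly(A) tail, so a count on a cluster histone gene covers polyadenylated copies and whatever else was carried along, and does not measure the whole mRNA of that gene.

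The letters of the stem-loop are shown first, because they mark the transcripts that normally end without a poly(A) tail. The pattern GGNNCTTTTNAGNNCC, searched on the transcript strand of GENCODE M21 (GRCm38) models, was present in 20 of the 33 members and in 89 of all 55450 annotated genes (0.161%). The search sees annotated models only. Some of those without the pattern are short, such as H2bc13 and H2bc15 (381 bases each) and H2ac12 (405), so its absence there does not show that the mRNA lacks it. The stem-loop is in capitals below, in DNA letters and 5′ to 3′, with up to 6 bases on each side. The first 4 genes were lower in Flica-negative cells of both lineages and the last 4 were higher.
H2ac19: taaaaaGGCTCTTTTCAGAGCCacccac
H2ac20: caaaaaGGCTCTTTTTAGAGCCaccaaa
H4c17: actaaaGGCCCTTTTCAGGGCCatc
H4c18: actaaaGGCCCTTTTCAGGGCCatccaa
H1f2: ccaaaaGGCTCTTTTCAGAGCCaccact
H2bc8: cccaaaGGCTCTTTTCAGAGCCacccat
H4c9: cttaaaGGCCCTTTTTAGGGCCaccaca
H2ax: cacaaaGGCCCTTTTAAGGGCCaccacc

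These stem-loops lie in the annotated 3′ untranslated part of genes with 1 exon. They stand at chr3:96239784-96239799 (minus strand) for H2ac19, chr3:96220418-96220433 (minus) for H2ac20, chr13:21812129-21812144 (plus) for H4c17 and chr13:21831798-21831813 (minus) for H4c18. Those of the higher genes stand at chr13:23739512-23739527 (plus) for H1f2, chr13:23571843-23571858 (plus) for H2bc8, chr13:22040966-22040981 (minus) for H4c9 and chr9:44335240-44335255 (plus) for H2ax. The letters did not separate the genes that fell from those that rose: H2ac19, H1f2 and H2bc8 share the same 16. Among the genes shown, the annotated model ran less far past the stem-loop in the lower than in the higher genes. Past the stem-loop the model of H4c17 ran for 3 bases, that of H4c18 for 31, that of H2ac19 for 35 and that of H2ac20 for 57. The models of H2bc8, H4c9, H2ax and H1f2 ran for 155, 330, 822 and 840 bases. This order did not hold among genes called in only CD8 or only CD4 cells. H4f16, lower in CD8 cells, had 2445 bases there, and H2bc7 and H2bc11, higher in CD8 and in CD4 cells respectively, had 29 and 23. In all, 11 members had a model extending more than 50 bases past a stem-loop.

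Upstream of the start site, 2 promoters are shown because their genes moved in opposite directions. H2bc8 rose and H4c17 fell in both lineages. Each is 250 bases of RefSeq sequence (GRCm38.p6, plus strand) that end at or near the annotated start, at chr13:23571150-23571399 for H2bc8 and chr13:21811496-21811745 for H4c17. Capitals mark CCAAT on either strand, TATAAA and the octamer core ATTTGCA.
H2bc8: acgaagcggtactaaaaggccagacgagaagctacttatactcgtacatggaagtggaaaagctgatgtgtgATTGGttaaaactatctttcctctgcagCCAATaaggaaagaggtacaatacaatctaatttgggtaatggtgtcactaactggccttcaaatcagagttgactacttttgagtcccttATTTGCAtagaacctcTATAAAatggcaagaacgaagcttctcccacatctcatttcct
H4c17: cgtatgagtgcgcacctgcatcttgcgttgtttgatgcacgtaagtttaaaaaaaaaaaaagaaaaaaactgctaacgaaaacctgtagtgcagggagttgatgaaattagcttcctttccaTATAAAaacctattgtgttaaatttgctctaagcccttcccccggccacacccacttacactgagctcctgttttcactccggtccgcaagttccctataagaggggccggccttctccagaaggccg

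Searched on both strands, CCAAT was in the promoters of 22 of the 28 members with a RefSeq promoter, against 41.1% of the promoters of 27025 symbols. It was in 11 of 11 H2B, 5 of 5 H2A, 3 of 3 H1 and 2 of 2 H3 promoters and in 0 of 4 H4 promoters. TATAAA was in 15 of 28 (15.7% of all symbols) and ATTTGCA in 8 of 28 (4.56%), 4 of them H2A and 4 H2B genes. Genes that rose and genes that fell both held CCAAT: H2ac19 and H2ac20 fell and had it, H4c9 rose and lacked it.

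A gene is in the tables where the authors' adjusted p was under 0.05 and the log2 change larger than 2 in either direction, in at least 1 of 4 comparisons, so genes that changed less have no values, and the p-values below are not independent evidence of change. Counts on listed genes summed to 2143579 to 3184674 per CD4 or CD8 control and Flica-negative library and 7310375 to 11046043 per Flica-positive library, which is not their depth. Histone genes held 5198 to 24842 counts per library. Normalized counts here are counts over the authors' size factor of each library, which was 0.836 to 0.853 in Flica-positive and 0.896 to 1.25 in all other libraries. Mitochondrially encoded genes took 42.8% to 51.7% of the listed counts in Flica-positive libraries and 15.1% to 28.8% elsewhere. CD8 control replicate 3 stood apart within the histone genes, with 11 of 33 at 0 counts against 2 and 4 in the other CD8 controls, so results against CD8 control are also given without it. Without it, 12 members were higher and 7 lower in CD8 Flica-negative cells, where H2bc23 and H3c3 (adjusted p = 0.0505 and 0.0692) no longer passed and H2bc12 (log2 1.46) and, as lower, H3c7 (log2 -1.93) did. CD4 control replicate 3 had 8 of 33 at 0 against 1 and 2 in the other CD4 controls. Without it, 10 members were higher and 5 lower in CD4 Flica-negative cells, since H3c8 then had too few counts to be tested. H2bc23 and H2bc24 had equal counts in 12 of 15 libraries and differed by at most 1 count elsewhere, and are 1 signal rather than a pair of observations.

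The sorted identity could be checked through few genes. Of 14 T cell markers only Cd8a was listed, at 9348 to 21642 normalized counts in CD8 libraries and 4.41 to 117 in CD4 libraries. All 12 neutrophil markers were listed. Their summed level was 54.6 to 143 in the control libraries, 2424 to 7656 in CD4 Flica-negative, 11140 to 17143 in CD8 Flica-negative and 192766 to 378730 in CD8 Flica-positive libraries, and 2 of the 12 were at 0 in all libraries of each control group. Granulocyte progenitor markers (6 of 7 listed) summed to at most 8.95 in controls, where 4 were at 0, and to 12461 to 22705 in Flica-positive libraries. The summed level of B cell markers (7 of 8 listed) went the other way, from 4988 to 7531 in controls to 32.6 to 200 in Flica-negative and 379 to 664 in Flica-positive libraries. Erythroid markers (7 of 12) summed to 1878 to 9144 in controls, 297 to 3610 in Flica-negative and 1567 to 111131 in Flica-positive libraries. Macrophage markers (6 of 9) reached 1620.2 in a Flica-positive library against at most 80.2 elsewhere, and megakaryocyte markers (4 of 5) 494 against at most 153. These levels moved with the groups that the histone genes were compared between, and their part in the histone values was not tested.

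**Figure D1:**
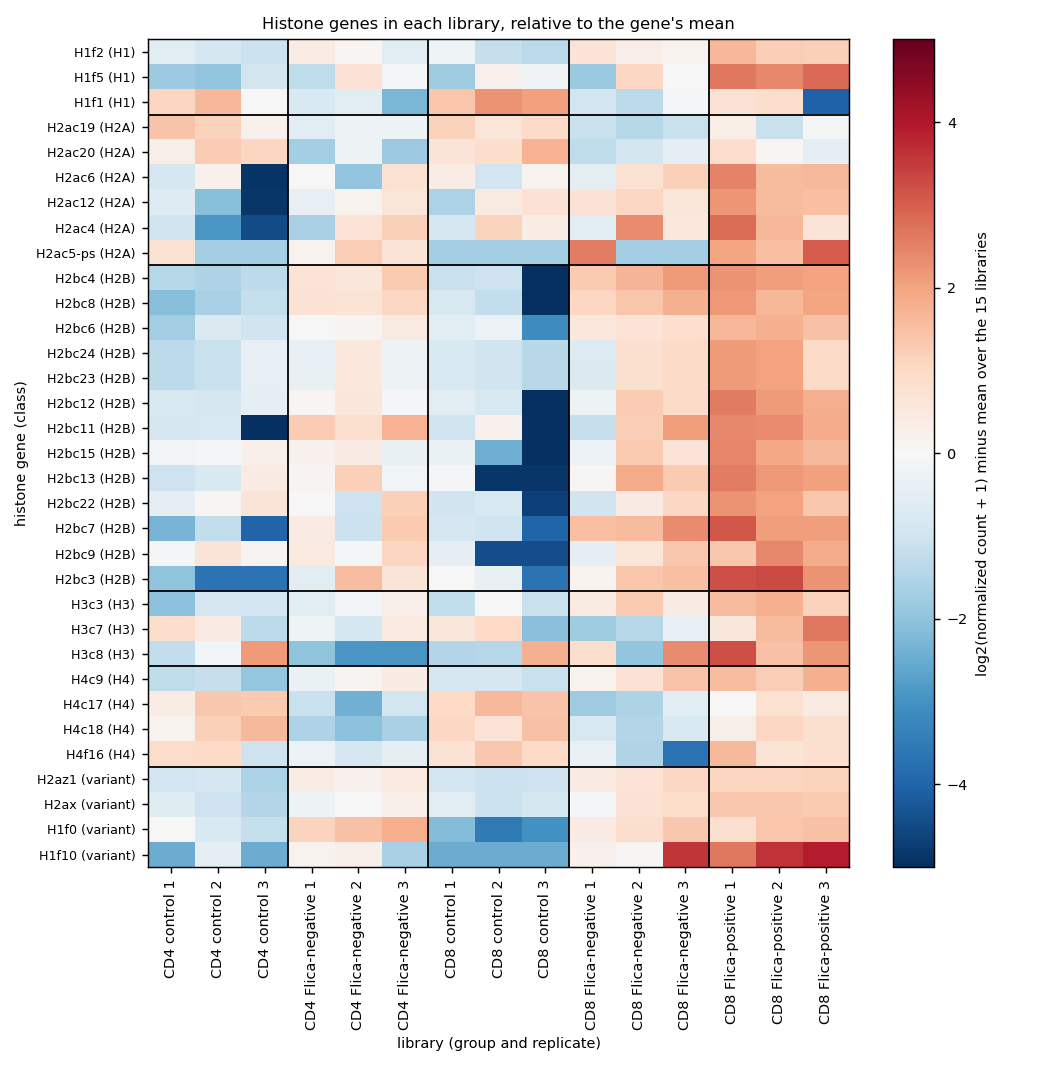
Heatmap of the 33 histone genes (rows, by class) in the 15 libraries (columns). Color is log2(normalized count + 1) minus the gene's mean over the libraries, with values under -5 drawn at the darkest blue. Most H2B cells are blue in the control columns and all are red in the Flica-positive columns, with the darkest blues in CD8 control replicate 3, while H2ac19, H2ac20, H4c17 and H4c18 are red in nearly all control columns and blue in the Flica-negative columns.

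Flica-negative cells were compared with control cells of the same lineage, to see which histone transcripts differ between T cells in aGvHD and resting T cells. In CD8 cells 13 members were higher and 6 lower in edgeR (quasi-likelihood test, Benjamini-Hochberg adjustment over all listed genes tested). Of these genes, 38.8% were called higher and 29.9% lower, so the share of histone genes called higher (13 of 33) was close to the background. In CD4 cells 10 members were higher and 6 lower, against 33.0% and 27.9% of all genes tested. The median log2 difference of the members was 1.58 in CD8 cells and 0.91 in CD4 cells, beside 0.61 and 0.09 over all genes tested. Of the CD8 calls, 8 were on genes that had entered the tables only through another comparison, and so were 7 of the CD4 calls. Those 8 CD8 genes were all listed through Flica-positive against CD8 control cells. That comparison uses the same CD8 control libraries, so these calls are not free of the listing.

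In both lineages 8 members rose (H1f2, H2bc4, H2bc8, H2bc6, H4c9, H2az1, H2ax, H1f0) and 5 fell (H1f1, H2ac19, H2ac20, H4c17, H4c18). Of all genes tested in both, 28.9% were higher in both and 21.6% lower in both, so the members' shares (8 and 5 of 33) were not above the background. No member was called in opposite directions, against 0.466% of all genes. In CD8 cells alone H2bc7, H2bc23, H2bc24, H3c3 and H1f10 passed as higher and H4f16 as lower, and in CD4 cells alone H2bc11 and H2bc3 passed as higher and H3c8 as lower. The remaining 11 members (H1f5, H2ac4, H2ac5-ps, H2ac6, H2ac12, H2bc9, H2bc12, H2bc13, H2bc15, H2bc22, H3c7) passed in neither. Under TMM scaling, which shifted the median gene by -0.38 in CD8 and -0.23 in CD4 cells, 6 members were called lower in each lineage, and 8 in place of 13 were called higher in CD8 and 7 in place of 10 in CD4. Without CD8 Flica-negative replicate 2, 9 were called higher in CD8 cells and 5 lower.

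**Figure D2:**
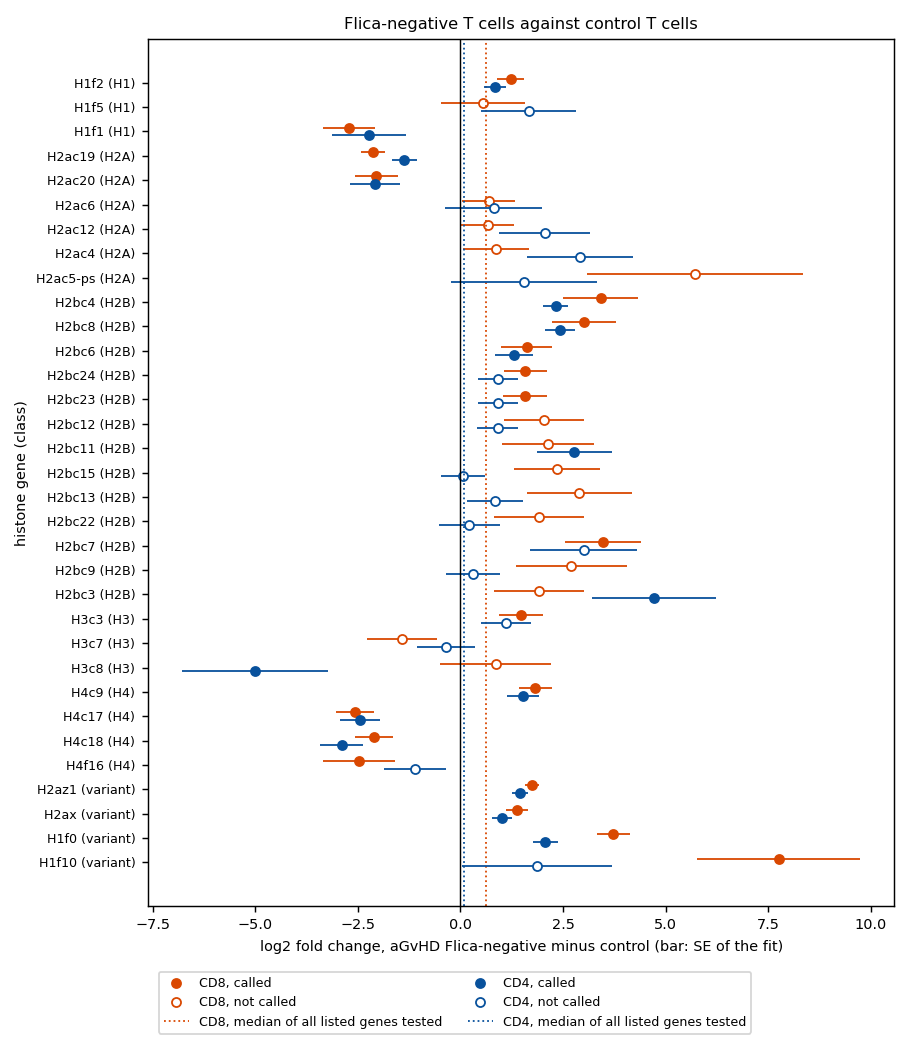
log2 fold change of each histone gene (rows, by class) in Flica-negative cells minus control cells, for CD8 (orange) and CD4 (blue). Points are the fitted values with their SE as bars, filled where the adjusted p was below 0.05, and dotted lines give the median of all listed genes tested (0.61 in CD8, 0.09 in CD4). All 13 H2B genes and all 4 variants lie right of 0 in both lineages, while H1f1, H2ac19, H2ac20, H4c17 and H4c18 lie left of it.

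The replacement variants carried most histone counts. H2az1 encodes H2A.Z, which is placed at promoters and enhancers. Its normalized counts were 3253, 3037 and 3113 in the CD8 control libraries and 8385, 10056 and 12899 in CD8 Flica-negative libraries. They were 3252, 3499 and 2129 in CD4 control and 8084, 7252 and 8996 in CD4 Flica-negative libraries. Every aGvHD library was above every control, and H2az1 rose 3.33-fold in CD8 (log2 1.74 ± 0.17 SE, adjusted p = 1.11e-05) and 2.74-fold in CD4 cells (log2 1.45 ± 0.20, adjusted p = 6.75e-05).

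H2ax encodes H2A.X, whose phosphorylated form marks broken DNA, and its gene makes both stem-loop and polyadenylated mRNA. It read 1178, 809 and 925 in CD8 control and 1603, 2799 and 3159 in CD8 Flica-negative libraries. CD4 libraries read 1119, 824 and 605 in control and 1411, 1690 and 2025 in Flica-negative libraries. The groups did not overlap in either lineage, and H2ax rose 2.60-fold in CD8 (adjusted p = 0.00126) and 2.01-fold in CD4 cells (adjusted p = 0.00386; edgeR in both).

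H1f0 encodes H1.0, a linker histone best known from cells that have stopped dividing. It read 121, 45.7 and 66.4 in CD8 control libraries and at 723, 995 and 1376 in CD8 Flica-negative libraries. In CD4 cells it was at 537, 319 and 239 in control and 1181, 1511 and 1889 in Flica-negative libraries. It had the largest rise of the well counted members in CD8 cells, 13.3-fold (log2 3.73 ± 0.41, adjusted p = 2.67e-05), and rose 4.19-fold in CD4 cells (log2 2.07 ± 0.30, adjusted p = 0.000117). H1f10, a further H1 variant, had 0 counts in all 3 CD8 control libraries and 5.33, 4.67 and 64.7 normalized counts in CD8 Flica-negative libraries. Its mean was at least 9.10-fold higher than the floor of 3 counts per control library, and most of that mean came from replicate 3 (edgeR adjusted p = 0.00901).

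Among linker H1 genes, H1f2 (H1.2, the best counted of them) rose while H1f1 (H1.1) fell. H1f2 was at 484, 251 and 221 in CD8 control and 904, 699 and 633 in CD8 Flica-negative libraries, a 2.34-fold rise (log2 1.23 ± 0.33, adjusted p = 0.00814). In CD4 cells it went from 386, 306 and 269 to 733, 604 and 389, a 1.80-fold rise (log2 0.85 ± 0.27, adjusted p = 0.0191), and the highest control library was just below the lowest Flica-negative library. These calls on H1f2 did not pass under TMM scaling in either lineage.

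H1f1 had low counts. It had 41.4, 76.1 and 67.3 normalized counts in CD8 control and 7.46, 5.598 and 14.7 in CD8 Flica-negative libraries, and fell by 2.71 on the log2 scale (SE 0.63, adjusted p = 0.00376). CD4 libraries had 33.5, 51.3 and 15.1 in control and 8.82, 10.0 and 2.40 in Flica-negative libraries, and fell by 2.23 (SE 0.89, adjusted p = 0.0488). The CD4 call was lost with all 5 groups in 1 fit (adjusted p = 0.0937) and when any library but CD4 control replicate 3 was left out (adjusted p = 0.0623 to 0.213). H1f5 (H1.5), at 3.20 to 30.8 in Flica-negative and 2.90 to 17.01 in control libraries, overlapped in both lineages and was not called.

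The 13 H2B genes all had a positive log2 change in both lineages, from 1.57 to 3.48 in CD8 and from 0.07 to 4.72 in CD4 cells, and 6 passed as higher in CD8 and 5 in CD4 cells. H2bc4 was the best counted of them. It was at 88.1, 92.2 and 0 in CD8 control and at 473, 616 and 845 in CD8 Flica-negative libraries, 10.7-fold higher in the fit (log2 3.42 ± 0.91, adjusted p = 0.00772). The library at 0 was CD8 control replicate 3, without which the log2 change was 2.84 ± 0.35 (adjusted p = 9.84e-05). In CD4 cells, where no control library was at 0, H2bc4 went from 70.3, 65.8 and 75.6 to 306, 281 and 472, a rise of 2.32 on the log2 scale (SE 0.31, adjusted p = 5.85e-05).

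H2bc8, whose promoter is printed above, read 71.4, 52.8 and 1.92 in CD8 control and 258, 334 and 438 in CD8 Flica-negative libraries. It read 27.9, 40.6 and 55.1 in CD4 control and 206, 204 and 259 in CD4 Flica-negative libraries. It rose 8.11-fold in CD8 (adjusted p = 0.00665) and 5.39-fold in CD4 cells (adjusted p = 0.000184), and without CD8 control replicate 3 its log2 change in CD8 cells was 2.46 in place of 3.02. H2bc6 read 56.4, 69.0 and 8.66 in CD8 control against 122.5, 137 and 151 in CD8 Flica-negative libraries, and 24.6, 51.3 and 41.8 against 82.9, 92.6 and 116 in CD4 cells, and was called higher in both, by 1.61 and 1.30 on the log2 scale. The H2bc23 and H2bc24 signal was called in CD8 cells alone, at log2 1.57 and 1.58. H2bc6 overlaps the model of another H1 gene on its strand, so its counts may hold reads of both.

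Of the 6 H2A genes, H2ac19 and H2ac20 fell in both lineages, and the other 4 had positive log2 changes without a call. H2ac19, the best counted H2A gene, had 563, 388 and 501 normalized counts in CD8 control and 118, 94.2 and 118 in CD8 Flica-negative libraries, a 4.39-fold fall (adjusted p = 0.000121). CD4 libraries had 687, 571 and 295 in control and 178, 212 and 211 in Flica-negative libraries, a 2.58-fold fall (adjusted p = 0.00280). Every 150-base word of its transcript, the length of 1 read, also occurs in Hist2h2aa1, its twin gene, so its counts cannot be assigned to either copy. Models on the other strand overlap all 6 H2A genes, H2ax, H1f0 and H1f10, and without a stated strand setting reads of both cannot be told apart.

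H2ac20, which shares no such word with another gene, fell too. It was at 67.0, 77.0 and 142 in CD8 control against 17.05, 21.5 and 30.2 in CD8 Flica-negative libraries (log2 -2.05 ± 0.53, adjusted p = 0.00629). CD4 libraries were at 51.4, 103 and 89.8 against 12.3, 34.6 and 11.2 (log2 -2.09 ± 0.61, adjusted p = 0.0121). Both genes lie on chromosome 3, apart from the chromosome 13 clusters that hold 26 of the 33 members. The chromosome 13 genes H2ac6, H2ac12 and H2ac4 had positive log2 changes of 0.66 to 0.87 in CD8 and 0.81 to 2.92 in CD4 cells, with no call. H2ac6 read 37.9, 14.3 and 32.7 in CD8 control and 20.2, 49.5 and 67.3 in CD8 Flica-negative libraries, and the groups overlapped. H2ac5-ps, a pseudogene, had 0 counts in every CD8 control library and 18.1, 0 and 0 in CD8 Flica-negative libraries, and was not called.

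The 3 H3 genes were low throughout. H3c3 read 22.9, 53.7 and 25.0 in CD8 control and 74.6, 136 and 72.5 in CD8 Flica-negative libraries and rose there (log2 1.48 ± 0.54, adjusted p = 0.0320). In CD4 cells it read 12.3, 29.98 and 27.6 in control and 36.1, 50.2 and 65.7 in Flica-negative libraries, without a call (log2 1.11 ± 0.60, adjusted p = 0.127). H3c7 read 48.5, 64.5 and 6.73 in CD8 control and 8.52, 11.2 and 24.2 in CD8 Flica-negative libraries, and 60.3, 42.5 and 12.5 against 27.3, 16.7 and 45.6 in CD4 cells, with overlap in both. H3c8 was called lower in CD4 cells, from 2.23, 5.80 and 32.0 to 0.88, 0 and 0, a difference that rested on replicate 3 of the control group.

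The 4 H4 genes split. H4c9 rose from 83.7, 83.3 and 69.2 to 173, 251 and 415 in CD8 cells (3.55-fold, adjusted p = 0.00237) and from 62.5, 68.7 and 39.1 to 121, 167 and 202 in CD4 cells (2.88-fold, adjusted p = 0.00590). H4c17 fell from 152, 231 and 207 to 21.3, 25.2 and 52.6 in CD8 cells (5.91-fold, adjusted p = 0.000848) and from 98.3, 192 and 189 to 34.4, 13.4 and 39.2 in CD4 cells (5.45-fold, adjusted p = 0.00138). In both genes and both lineages the groups did not overlap.

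H4c18 fell with H4c17, from 122, 94.9 and 163 to 33.0, 20.5 and 34.5 in CD8 cells and from 67.0, 134 and 183 to 19.4, 13.4 and 18.4 in CD4 cells (4.30-fold and 7.44-fold, adjusted p = 0.00268 and 0.000558). H4c17 shares 85.8% of its 150-base words with H4c18, so these are in part the same reads. Their genes (chr13:21811746-21812147 and chr13:21831767-21832196) lie between H2bc23 and H2bc24, whose counts went up in CD8 cells. H4f16, on chromosome 6, read 38.8, 60.0 and 47.1 in CD8 control and 18.1, 7.46 and 0.86 in CD8 Flica-negative libraries and fell (log2 -2.47 ± 0.87, adjusted p = 0.0284). In CD4 cells it read 44.7, 46.4 and 10.7 against 18.5, 12.3 and 16.02 and was not called.

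**Figure D3:**
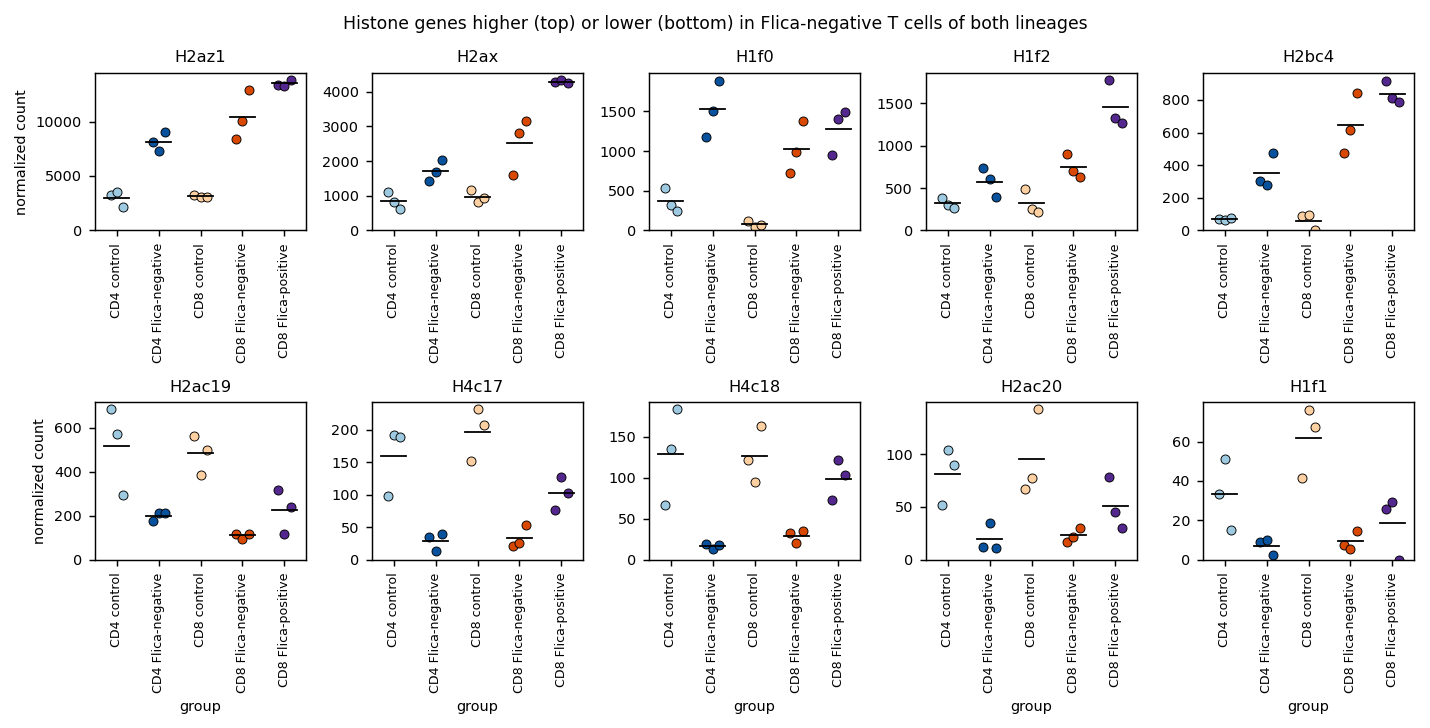
Normalized counts of 5 genes that rose (top) and 5 that fell (bottom) in Flica-negative cells of both lineages, by group. Points are libraries and lines are group means of 3. In all 10 genes the control and Flica-negative points of a lineage do not overlap. H2ac19 was at 118 to 319 in Flica-positive CD8 libraries, above or level with CD8 Flica-negative libraries and below CD8 control libraries.

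The makeup of the cluster histone counts differed between control and Flica-negative cells. The summed H2B level was 463, 398 and 72.1 in CD8 control libraries and 1156, 1918 and 2350.0 in CD8 Flica-negative libraries, and 325, 396 and 479 against 1011, 1142 and 1357 in CD4 cells. H2B genes took 4.33% to 29.1% of the cluster histone sum in controls and 43.7% to 59.6% in Flica-negative libraries. The summed H2A level was 0.430 of its control mean in CD8 and 0.502 of it in CD4 Flica-negative cells, with no overlap between libraries. H2ac19 alone held a mean of 484 of the summed 668 in CD8 control and 518 of 629 in CD4 control cells. H2ac6, H2ac12, H2ac4 and H2ac5-ps had positive log2 changes without a call, so the lower sum does not describe every H2A gene. The 5 genes that fell in both lineages, which were picked for that, took 44.0% to 64.8% of the cluster sum in controls, 4.85% to 11.9% in Flica-negative and 7.25% to 8.40% in Flica-positive libraries. The whole cluster sum was 1.76-fold its control mean in CD8 and 1.30-fold in CD4 cells, and its H2B part 5.81-fold and 2.93-fold, as ratios of group means with no test. Of all histone counts, H2az1 alone took 46.1% to 62.7% in every library.

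**Figure D4:**
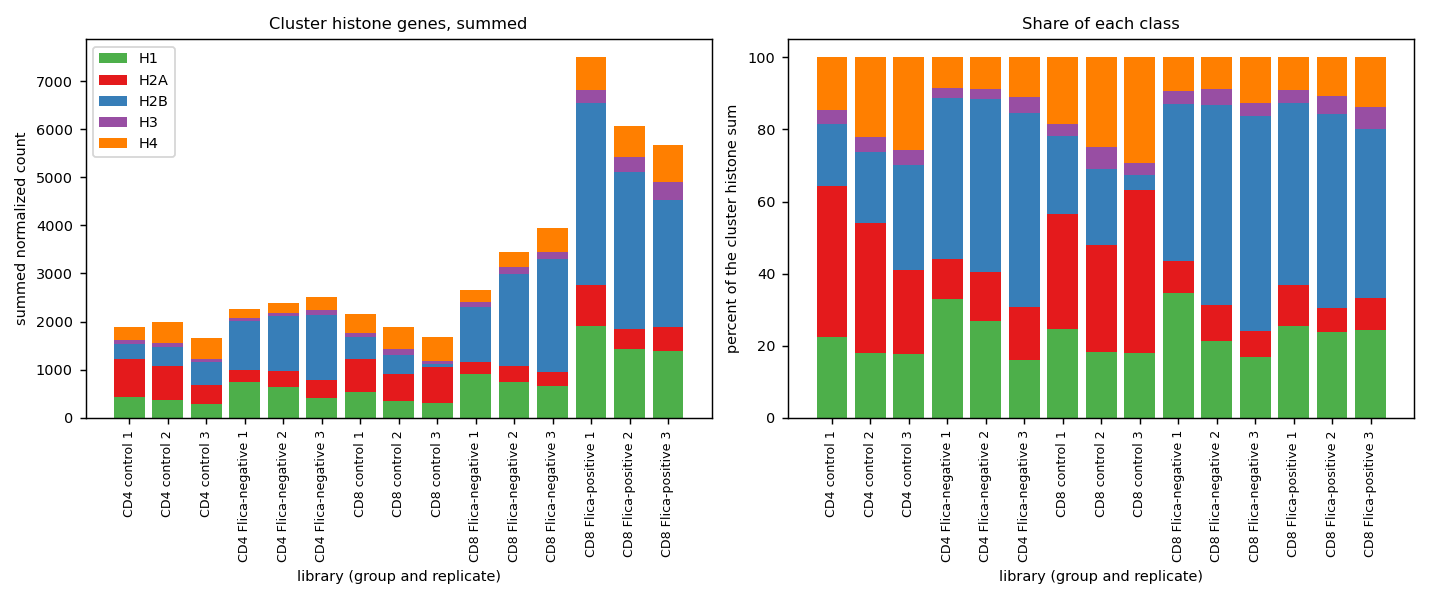
Summed normalized counts of the 29 cluster histone genes in each library (left) and the share of each class in that sum (right), stacked by class. H2B (blue) takes 4.33% to 29.1% of the sum in control libraries and 43.7% to 59.6% in Flica-negative libraries, and H2A (red) has a smaller share in all aGvHD libraries than in any control library. H2ac19 makes up most of the H2A sum in the control libraries.

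Per length of exon, the order of the genes differed between resting and aGvHD cells. In CD8 control cells H2az1 led with 1765 normalized counts per kilobase of exon, followed by H2ac19 (917), H2ax (701), H4c17 (489) and H4c18 (295). In CD8 Flica-negative cells H2az1 (5882) and H2ax (1821) were followed by H2bc4 (558), H2bc8 (555) and H1f0 (502), of which the last 3 differed by less than their spread between libraries. H2ac19 stood at 209 per kilobase there, in place 8, and H4c17 in place 17. In CD4 control cells the first 5 places were those of H2az1, H2ac19, H2ax, H4c17 and H4c18 again, and H1f0 took place 7 against place 17 in CD8 control cells.

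Flica-positive CD8 cells were compared with Flica-negative CD8 cells from aGvHD mice, to see whether histone transcripts differ with caspase-1 activity. In this comparison 5 members were higher and 0 lower by edgeR, against 21.7% of all genes tested higher and 2.80% lower. At an unadjusted p below 0.05, 16 members were higher and 0 lower, against 30.4% and 7.98% of all genes. With DESeq2 12 were higher and 0 lower after adjustment, against 26.4% and 4.55%. The median log2 difference of the members was 1.15, beside 0.45 over all genes tested. Of the 5 edgeR calls, 2 (H3c7 and H1f5) were on genes listed through this same comparison, so these calls repeat the listing. The other 3 (H1f2, H2bc12, H2ax) were listed through Flica-positive against CD8 control cells, which uses the same Flica-positive libraries. Under TMM scaling, which moved the median gene by -0.57, the share of higher among all calls went from 88.6% to 61.7% and only H3c7 was called among the members.

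H3c7 read 48.1, 98.9 and 203 in Flica-positive libraries against 8.52, 11.2 and 24.2 in Flica-negative libraries (log2 2.98 ± 0.75, adjusted p = 0.0143, and 2.40 with adjusted p = 0.0299 under TMM). The groups did not overlap, and the Flica-positive libraries spread widely. H1f5 read 93.8, 80.0 and 109 against 3.20, 30.8 and 14.7 (log2 2.52 ± 0.80, adjusted p = 0.0419). H2bc12 read 319, 228 and 184 against 43.7, 126 and 101 (log2 1.43 ± 0.46, adjusted p = 0.0446). H1f2 was at 1777, 1328 and 1272 against 904, 699 and 633, 1.96-fold higher (adjusted p = 0.0108), and H2ax at 4269, 4346 and 4248 against 1603, 2799 and 3159, 1.70-fold higher (adjusted p = 0.0466). Without CD8 Flica-negative replicate 1 or replicate 2, 1 member was called, and without Flica-positive replicate 3, 8 were.

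All 33 members had positive log2 differences in this comparison, as had 2621 of the 4286 genes tested. Those of H1f0, H2az1, H2bc4 and H2bc8 (0.32 to 0.51) were smaller than the shift of the median gene under TMM. None of the 5 genes that fell in Flica-negative cells of both lineages passed the test, and they had been picked for low values in the same CD8 Flica-negative libraries. H4c17 was at 76.2, 127 and 103 and H4c18 at 72.7, 121 and 103 in Flica-positive libraries, above all CD8 Flica-negative libraries (adjusted p = 0.0757 and 0.0512). H2ac19 was at 319, 118 and 240.4 there, and its lowest library was within the Flica-negative range (log2 1.03 ± 0.43, adjusted p = 0.104). H2az1, at 13349, 13286 and 13849, was above all Flica-negative libraries with a log2 difference of 0.37 ± 0.20 (adjusted p = 0.192). H1f0, at 948, 1407 and 1498, overlapped with them.

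Against CD8 control cells, 23 members were higher and 1 was lower in Flica-positive cells, beside 47.2% and 24.2% of all genes tested. The median log2 difference was 2.59 for the members and 2.04 for all genes tested. All 13 H2B genes were called higher, by 2.59 to 4.13 on the log2 scale, with H1f2, H1f5, H2ac6, H2ac5-ps, H3c3, H4c9 and the 4 variants. All 23 genes called higher had entered the tables through this same comparison. Their calls therefore repeat the listing and are no further evidence of a rise. H1f0 was 16.5-fold higher (log2 4.05 ± 0.43, adjusted p = 6.10e-05). H1f10, at 32.8, 65.9 and 83.7, was at least 22.2-fold above the floor of 3 counts per control library, and H2ac5-ps, at 11.7, 8.24 and 25.1, at least 5.49-fold. The lower gene was H2ac19 (log2 -1.10 ± 0.41, adjusted p = 0.0402), which passed without Flica-positive replicate 1 (adjusted p = 0.0256) and missed without any of the other 5 libraries, where its adjusted p ran up to 0.113. Without CD8 control replicate 3, 21 members were higher and 0 lower by edgeR, since H2bc9, H2bc13 and H2ac6 no longer passed and H3c8 did. Without Flica-positive replicate 1, 16 were higher.

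These counts turned with the scaling. Under TMM the median gene moved by -1.61, the share of higher among all calls went from 66.1% to 43.4%, and 3 members were higher (H1f0, H1f10, H2ac5-ps) and 5 lower (H1f1, H2ac19, H2ac20, H4c17, H4c18). With DESeq2 size factors over the listed genes 3 were higher and 6 lower. H2ac19 was lower under each of the 3 scalings (log2 -1.10, -2.74 and -2.96) and H1f0 higher under each (4.05, 2.35 and 2.18). H4f16 was at 0.05 in the main fit and at -1.80 with DESeq2 size factors, where it was called lower. No H2B gene was called under either of the other scalings. Both were computed over the listed genes alone, and both take most genes to be unchanged. The listed genes were chosen for change, so these scalings cannot decide whether the H2B genes rose.

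**Figure D5:**
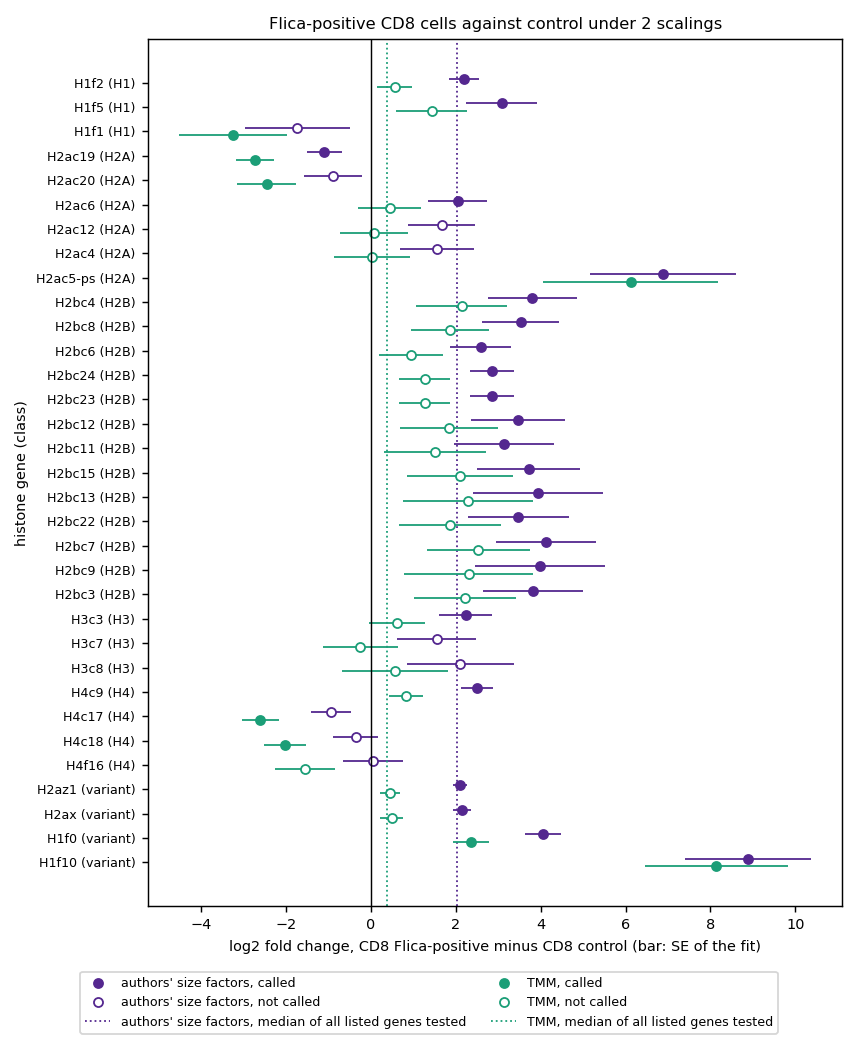
log2 fold change of each histone gene (rows) in Flica-positive CD8 cells minus CD8 control cells with the authors' size factors (purple) and with TMM (green). Points are fitted values with their SE as bars, filled where the adjusted p was below 0.05, and dotted lines are the medians of all listed genes tested (2.04 and 0.38). The H2B genes lie right of 0 in both and are filled in purple alone, while H2ac19 is filled left of 0 in both.

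Lineages were compared with contrasts that had not been used to list genes. These contrasts reuse the libraries that did the listing, so their calls are not free of it. Between control cells, 1 of 31 members tested differed, against 13.0% of all genes tested. It was H1f0, 365 ± 154 (SD, n = 3) in CD4 control and 77.6 ± 38.8 in CD8 control cells, with every CD4 library above every CD8 library (log2 2.23 ± 0.37, adjusted p = 0.000359). Between Flica-negative cells 3 of 33 differed, against 22.7% of all genes. H2ac19 was higher in CD4 cells (200.3 ± 19.2 against 110.2 ± 13.9, log2 0.86 ± 0.29, adjusted p = 0.0489). H2bc4 was lower in CD4 cells (353 ± 104 against 645 ± 188, log2 -0.87 ± 0.27, adjusted p = 0.0339), and so was H3c8 (0.29 ± 0.51 against 17.2 ± 18.9, adjusted p = 0.0359). H2ac19 had been listed only through CD8 Flica-negative against control cells, and H3c8 only through CD4 Flica-negative against control cells. The median difference of the members was -0.50, beside -0.12 over all genes. Without CD4 Flica-negative replicate 1 or replicate 2, none of the 33 passed.

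The difference between the responses of CD4 and CD8 cells was tested as an interaction. This contrast is built from the Flica-negative against control comparisons, which also listed genes. Of the 33 members 1 passed, against 10.4% of all genes tested. It was H1f0, whose rise was smaller in CD4 cells by 1.66 on the log2 scale (SE 0.50, adjusted p = 0.0416). Over the alternatives tried, its value was negative and its adjusted p ran from 0.0111 to 0.147. Of the fits without 1 library it passed without CD4 control replicate 3, CD4 Flica-negative replicate 3, CD8 control replicate 1 or CD8 Flica-negative replicate 1, and missed in the 8 others. For the genes that fell, the interaction was 0.76 ± 0.43 for H2ac19 (adjusted p = 0.277) and 0.11 ± 0.69 for H4c17, with no call on either.

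Genes that handle or accompany histones were read from lists. Of 30 histone chaperones and deposition factors 3 were listed, and all 3 rose in both lineages: Asf1b, which hands H3 and H4 to other chaperones (log2 3.31 in CD8, 2.39 in CD4), Chaf1b, a subunit of the assembly factor CAF-1 (2.20 and 1.31), and Mms22l (2.02 and 1.72). Of 19 genes of histone mRNA processing and the histone locus body only Zfp473 was listed, at 12.7 ± 4.45 in CD8 control and 60.0 ± 29.0 in CD8 Flica-negative cells (log2 2.23 ± 0.62, adjusted p = 0.00961), with no call in CD4 cells (log2 1.39 ± 1.01). Cenpa, the centromeric H3 variant, rose in both (2.10 and 1.06), and Hmgn2, a nucleosome-binding protein, in CD8 cells (1.93). Both Cenpa and Hmgn2 passed the interaction test with smaller changes in CD4 cells (-1.04 and -1.50).

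Of 44 S phase genes 26 were listed and all 26 rose in both lineages, with a median log2 change of 2.94 in CD8 and 2.21 in CD4 cells. They included E2f2, an activator of S phase genes (3.38 and 2.01), Mcm5 of the replicative helicase (1.95 and 1.14) and Rrm1 of ribonucleotide reductase (1.90 and 1.47). All 24 listed mitosis genes (of 25) rose as well, with medians of 4.20 and 3.33, among them Mki67 (4.42 and 3.99), Top2a (3.58 and 2.697) and Ccnb2 (5.49 and 4.27). Against these medians, the members' medians of 1.58 and 0.91 were lower, and unlike the S phase and mitosis lists the histone genes included calls in both directions. Since all these genes were listed through the same 4 comparisons, these counts describe listed genes only. In Flica-positive against Flica-negative CD8 cells, 3 of the 26 S phase and 4 of the 24 mitosis genes were higher and none lower, beside 21.7% of all genes higher. Between Flica-negative lineages, 22 of 26 S phase and 23 of 24 mitosis genes were lower in CD4 cells, beside 12.6% of all genes.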

How the data were processed

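RNA was captured with oligo-dT, and paired-end reads of 150 bases were sequenced from 15 libraries (5 groups of 3). The submitters' processing notes name STAR 2.7.1a, DESeq2 and GRCm38; the counting tool and strand setting are not given in the sources used here. The authors deposited 4 gene tables with whole-number counts per gene for all 15 libraries, without normalization. The mean expression signal, as deposited, is the mean of counts divided by size factors. The log2 fold change with its standard error, the Wald score, and the p-value and adjusted p-value, computed by the authors and deposited beside them, were not used, nor were 4 deposited tables of enriched terms.

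Size factors were recovered from counts and means with a relative error below 1e-09. Groups were compared with edgeR 4.0.16 (quasi-likelihood test, 2-group fits, a 4-group fit for the interaction, authors' size factors, at least 10 counts over the fitted libraries) in R 4.3.3 with limma 3.58.1, and Benjamini-Hochberg adjustment over the listed genes tested. Calls are at an adjusted p below 0.05. Errors after ± are SE for log2 changes and SD for means. Folds against a group at 0 use a floor of 3 counts per library, which covers counting error only. Each library has a replicate number, but no source says which mice a library pooled, so p-values measure the spread between these libraries. Members, gene lists and tests were chosen with earlier results of these data known. Per-library values are given for the best counted members of each class, up to 3, and for members that moved against their class. All 33 identifiers matched GENCODE M21, whose transcripts gave positions, ends and shared 150-base words; 28 matched RefSeq promoters.

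In a test on simulated data for CD8 Flica-negative against control (4397 genes, 200 changed 4-fold), 66 changed and 2 unchanged genes were called, and 60 of 80 with a mean of at least 50. For the interaction (4510 genes) 39 of 200 and 0 unchanged genes were called. Alternatives were TMM and DESeq2 size factors, both computed over the listed genes alone, and the DESeq2 1.42.0 Wald test. Further alternatives were other count filters, a replicate block, all 5 groups in 1 fit, and leaving out each library. Python 3.11.15 (pandas 2.3.3, numpy 2.4.6, matplotlib 3.10.9) gave summaries and plots.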

Additional observations from a re-analysis of the deposited data

Results flagged for a closer look

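H1f0 was the 1 histone gene whose change differed between lineages by the interaction test. Its log2 rise from control to Flica-negative cells was smaller in CD4 cells by 1.66 (interaction -1.66 ± 0.50 SE, edgeR adjusted p = 0.0416), being 2.07 in CD4 and 3.73 in CD8 cells. Control CD8 cells started lower, at 45.7 to 121 normalized counts against 239 to 537 in control CD4 cells, and the Flica-negative libraries of both lineages overlapped (723 to 1376 in CD8, 1181 to 1889 in CD4). H1f0 rose in 3 of 3 Flica-negative libraries of each lineage relative to every control library. B cell marker levels were alike in the control groups (4988 to 7531 in CD8, 5249 to 6946 in CD4), and neutrophil marker levels were 65.8 to 143 in CD4 and 54.6 to 117 in CD8 control libraries and 2424 to 7656 in CD4 and 11140 to 17143 in CD8 Flica-negative libraries. The part of either in this result was not tested. The call was lost under TMM (adjusted p = 0.147), with all 5 groups in 1 fit (adjusted p = 0.05002) and in 8 of 12 fits without 1 library.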

How the results depend on the processing

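Of the 69 calls on single histone genes, none changed sign under any alternative that gave a value. Of these, 33 missed the threshold under TMM, 24 with DESeq2 size factors over the listed genes, 16 with the replicate block, 8 with all 5 groups in 1 fit, and 1 each with the DESeq2 Wald test and without a filter. For caspase-1 activity within CD8 cells (Flica-positive minus Flica-negative) 5 histone genes were called, and 1 under TMM, 1 with DESeq2 size factors, 8 among genes averaging 10 or more normalized counts and 12 with DESeq2. Against CD8 control, 24 were called, and 8 under TMM and 9 with DESeq2 size factors. Between Flica-negative lineages 3 were called, and 8 with the replicate block and 1 with all 5 groups in 1 fit. The interaction gave 1, and 0 under TMM and 0 with all 5 groups in 1 fit (by edgeR, with 3 at an unadjusted p below 0.05 under TMM; DESeq2 gave 1).

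Leaving out each library in turn, the number called ran from 14 to 20 for CD8 Flica-negative against control, from 11 to 15 for CD4 Flica-negative against control, from 1 to 8 for Flica-positive against Flica-negative and from 17 to 23 for Flica-positive against control. It ran from 0 to 4 between Flica-negative lineages, from 1 to 3 between control lineages and from 0 to 4 for the interaction, where the 4 without CD8 control replicate 1 were H1f0, H2bc9, H2bc13 and H2bc15. The cause of these differences was not tested.

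Replicate numbers were not taken to pair the libraries, since the correlations of same-numbered deviations across genes ran from -0.0664 to 0.115 and were not all above 0.1 in any comparison. In 3 of 6 comparisons (Flica-positive with Flica-negative CD8 cells, and the comparisons between lineages) every library correlated best with its own number. With the replicate block, 15, 12, 7 and 17 histone genes were called in the comparisons of Flica-negative with control (CD8, then CD4), Flica-positive with Flica-negative, and Flica-positive with control. H1f1 in CD4 cells was not called with the block (adjusted p = 0.127).

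Counts limit the low genes: H1f10, H2ac5-ps, H2bc3 and H3c8 had groups at or near 0. Without the 7 members that share at least 50% of their 150-base words with another transcript, H2A took 3.02% of the histone counts in CD8 control cells in place of 11.02%, and H4 2.49% in place of 7.49%.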
